A study of Mus musculus with 9 samples.

Results

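The 8 adrenergic receptor genes described here, *Adra1a*, *Adra1b*, *Adra1d*, *Adra2a*, *Adra2b*, *Adra2c*, *Adrb1* and *Adrb3*, were taken as a fixed list by name, from 21755 protein-coding genes on the autosomes and X chromosome in GENCODE M21. Their peaks were read from ChIC-Seq of wild-type primary oviductal smooth muscle cells of mated mice on D2 (day 2) of pregnancy, aged 8 to 12 weeks. In this assay an antibody carries protein A fused to micrococcal nuclease to its target in fixed cells, and the DNA cut there is sequenced. One group of 3 libraries (WT1 to WT3) was made with an antibody against PBRM1 (BAF180), which defines the PBAF complex among the SWI/SNF chromatin remodelers, and the other group of 3 with an antibody against BRG1, an ATPase of SWI/SNF complexes. Cells of every group came from oviducts digested with enzymes, passed through a filter and kept for hours in serum, and each library was made from 50000 cells. The labels do not say whether the numbered replicates came from separate mice or cultures, so the p-values measure only the spread between these libraries. The 3 IgG control samples of the series were not analysed here. The experiment was designed to find where these proteins sit on DNA, and the comparisons below ask where they were detected at the adrenergic receptor genes and whether the antibodies differed there.

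Adrenergic receptors are G protein-coupled receptors for noradrenaline and adrenaline. The receptors encoded by the *Adra1* genes couple to Gq and contract smooth muscle, those encoded by the *Adra2* genes couple to Gi and lower cyclic AMP, and those encoded by *Adrb1* and *Adrb3* couple to Gs and raise cyclic AMP, which relaxes smooth muscle. The muscle layer of the oviduct is innervated by sympathetic fibers, and its contraction moves the embryo toward the uterus.

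The sequences below, from GRCm38.p6, carry the sites to which the results return. They are the 4 distal sites with a peak in all 6 replicate lists, both sites upstream of *Adrb1* that BRG1 marked in more than 1 library, and the upstream bases of 2 CpG-rich promoters, *Adra2b* and the inner start of *Adra1b*. Site windows span 201 bases around the summit of the stronger pooled peak. The promoter stretches are the 250 bases before the RefSeq start. All are written 5′ to 3′ on the strand of the receptor gene, with capitals marking matches to the motifs searched.
Adra1b, 18870 bp upstream (chr11:43919982-43920182, - strand): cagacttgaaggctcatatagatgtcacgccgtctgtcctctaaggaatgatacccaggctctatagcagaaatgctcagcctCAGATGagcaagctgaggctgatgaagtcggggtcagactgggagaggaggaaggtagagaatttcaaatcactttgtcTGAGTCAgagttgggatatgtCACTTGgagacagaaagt
Adra1b, past the 3′ end (chr11:43774129-43774329, - strand): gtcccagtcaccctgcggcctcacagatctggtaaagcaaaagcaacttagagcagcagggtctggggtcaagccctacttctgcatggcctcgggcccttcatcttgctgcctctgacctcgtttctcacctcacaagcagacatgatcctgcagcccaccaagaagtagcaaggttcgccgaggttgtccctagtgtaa
Adrb3, intronic site 4155 bp upstream (chr8:27234878-27235078, - strand): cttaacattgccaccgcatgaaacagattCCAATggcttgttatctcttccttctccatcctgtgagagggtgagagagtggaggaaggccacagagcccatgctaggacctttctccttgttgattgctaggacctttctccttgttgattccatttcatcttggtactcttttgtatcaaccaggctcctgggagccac
Adrb3, downstream site in Got1l1 (chr8:27206587-27206787, - strand): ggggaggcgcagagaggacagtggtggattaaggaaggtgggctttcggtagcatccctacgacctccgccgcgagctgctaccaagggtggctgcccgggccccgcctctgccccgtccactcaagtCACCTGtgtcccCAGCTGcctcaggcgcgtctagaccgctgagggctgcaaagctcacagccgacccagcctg
Adrb1, 13130 bp upstream (chr19:56708963-56709163, + strand): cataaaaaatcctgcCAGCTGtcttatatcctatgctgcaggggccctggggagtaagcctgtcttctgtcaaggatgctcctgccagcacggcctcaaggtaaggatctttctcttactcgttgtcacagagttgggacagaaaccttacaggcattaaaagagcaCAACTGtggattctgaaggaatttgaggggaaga
Adrb1, 623 bp upstream (chr19:56721489-56721689, + strand): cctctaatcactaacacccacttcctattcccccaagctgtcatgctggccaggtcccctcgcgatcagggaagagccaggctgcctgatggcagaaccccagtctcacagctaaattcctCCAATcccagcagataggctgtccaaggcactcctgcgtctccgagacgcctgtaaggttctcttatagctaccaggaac
Adra2b promoter (chr2:127362929-127363178, + strand): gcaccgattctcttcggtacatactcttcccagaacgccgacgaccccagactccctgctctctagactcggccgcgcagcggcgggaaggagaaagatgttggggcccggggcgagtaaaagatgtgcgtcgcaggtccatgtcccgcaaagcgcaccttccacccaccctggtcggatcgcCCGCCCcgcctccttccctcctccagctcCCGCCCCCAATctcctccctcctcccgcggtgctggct
Adra1b inner promoter (chr11:43836490-43836739, - strand): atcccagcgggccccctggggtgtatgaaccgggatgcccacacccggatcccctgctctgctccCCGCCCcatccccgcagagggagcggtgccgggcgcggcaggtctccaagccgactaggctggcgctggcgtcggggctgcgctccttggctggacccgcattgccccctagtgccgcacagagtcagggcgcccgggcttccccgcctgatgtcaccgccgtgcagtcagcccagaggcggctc

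The 8 motifs searched on both strands were the GC box GGGCGG, the CRE half-site TGACG, the CCAAT box CCAAT, the TATA box TATAAA, the AP-1 site TGANTCA, the E-box CANNTG, the steroid receptor half-site TGTTCT and the CArG box. Matches could overlap. The *Adra1b* window 18870 bp upstream held 1 AP-1 site and 2 E-boxes. An AP-1 site was held by 13.2% of all 94548 PBRM1 and 10% of all 96109 BRG1 pooled summit windows, and an E-box by 65.9% and 67.4%. Both E-boxes of the *Adrb3* downstream window lay within its 3′ part, and the window past the end of *Adra1b* held none of the 8 motifs. The other *Adrb3* window and the *Adrb1* window nearest the gene each held 1 CCAAT, as did 23.1% of PBRM1 and 22.2% of BRG1 windows. Of the 18 site windows that could be centred on a pooled summit and had peaks in at least 2 replicate lists, 9 held an E-box, 4 a GC box, 4 a CCAAT, 2 a CRE half-site, 2 a steroid receptor half-site, 1 an AP-1 site, and none a TATAAA or a CArG box. Over all pooled summit windows, a GC box was held by 11.2% for PBRM1 and 13.2% for BRG1, and a CRE half-site by 10.1% and 11.1%. A steroid receptor half-site was held by 16.4% and 15.5%, and a TATAAA by 9.43% and 6.72%. A CArG box was rare in the background too, at 1.22% of PBRM1 and 1.02% of BRG1 windows.

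RefSeq promoter sequences of 300 bases, 50 of them after the start, were matched for 5 of the 8 genes, in 6 entries. *Adra1a*, *Adra1d* and *Adrb3* had no entry. The *Adra2b* promoter held 2 GC boxes and the inner *Adra1b* promoter also 2, while 46.2% of 21230 protein-coding promoters held at least 1. The *Adrb1* promoter held 1 GC box, 1 CRE half-site and 1 CCAAT, where 23.6% and 38.2% of promoters held a CRE half-site and a CCAAT. *Adra2b* also held 1 CCAAT, the outer *Adra1b* promoter 3 CCAAT and 1 AP-1 site, and *Adra2c* 1 CCAAT and 4 E-boxes. *Adra2a* held 1 GC box, 1 CRE half-site, 1 TATAAA and 1 E-box. Of all promoters, 6.99% held an AP-1 site, 12.6% a TATAAA and 69% an E-box. The observed to expected CpG ratio of the 250 upstream bases was 0.900 at *Adra2b*, 0.781 at *Adrb1*, 0.770 at *Adra2a* and 0.669 at the inner *Adra1b* start. It was 0.343 at *Adra2c* and 0.293 at the outer *Adra1b* start, while the median over the 300-base promoters of all protein-coding genes was 0.567.

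The libraries held 18126049 to 23992352 fragments for PBRM1 and 14284532 to 15897724 for BRG1, with 31970 to 39467 peaks per replicate list. Levels are given as FPM, the pileup per 1000000 fragments of the library. A peak needed a pileup (fragments covering its summit) of at least 6 to 8. A missing peak means a signal not detectable at the depth of its library. The BRG1 libraries were shallower. The PBRM1 lists held promoter peaks at fewer receptor genes (3, 3 and 1, against 5, 4 and 6). They also did so over all 21755 genes (11764, 11142 and 11358, against 12665, 11991 and 12473). The part of depth in these counts was not tested. Because no control library entered the peak calling, cutting of open chromatin without the antibody target cannot be told apart from binding. In the check of the cell label, 5 of 8 smooth muscle markers had a promoter peak in all 6 lists (*Acta2*, *Tagln*, *Cald1*, *Smtn*, *Mylk*), where 41.8% of all genes did, whereas *Cnn1* had none and *Myh11* had 1 in a single BRG1 list. None of 7 epithelial, 3 blood or 4 neuronal and glial markers did, and 1 of 4 endothelial markers did (*Tek*). Promoter peaks in only some lists were found at *Krt8*, *Krt18*, *Cdh1*, *Pecam1*, *Kdr*, *Dbh*, *Syp* and the smooth muscle marker *Des*. Among these, *Kdr*, *Dbh* and *Des* had one in all 3 BRG1 lists. These counts describe promoter peaks, not RNA, and were not tested.

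Most adrenergic receptor genes had a promoter peak in some replicate lists, and few had one in all. A promoter peak was one with its summit within 2 kb of any annotated start of the gene. *Adra2a* alone of the 8 had a promoter peak in all 6 replicate lists, where 41.8% of protein-coding genes did, and it was the only member with one in all 3 PBRM1 lists (background 44.2%). In all 3 BRG1 lists, 2 of 8 members had one, *Adra2a* and *Adrb1* (background 50.0%). *Adra2c* had none in any list, as did 34.3% of genes, and the other 6 had one in 1 to 5 lists, where 23.9% of genes did. In all, 7 of 8 had one in at least 1 list, as did 65.7% of genes. Members had a promoter peak in more BRG1 than PBRM1 lists in 5 cases of 8 (*Adra1b*, *Adra1d*, *Adra2b*, *Adrb1*, *Adrb3*), against 14.7% of genes, and in more PBRM1 lists in 0 of 8, against 5.48%, so BRG1 lists were the more frequent over all genes too. These counts are descriptions with no test.

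**Figure D1:**
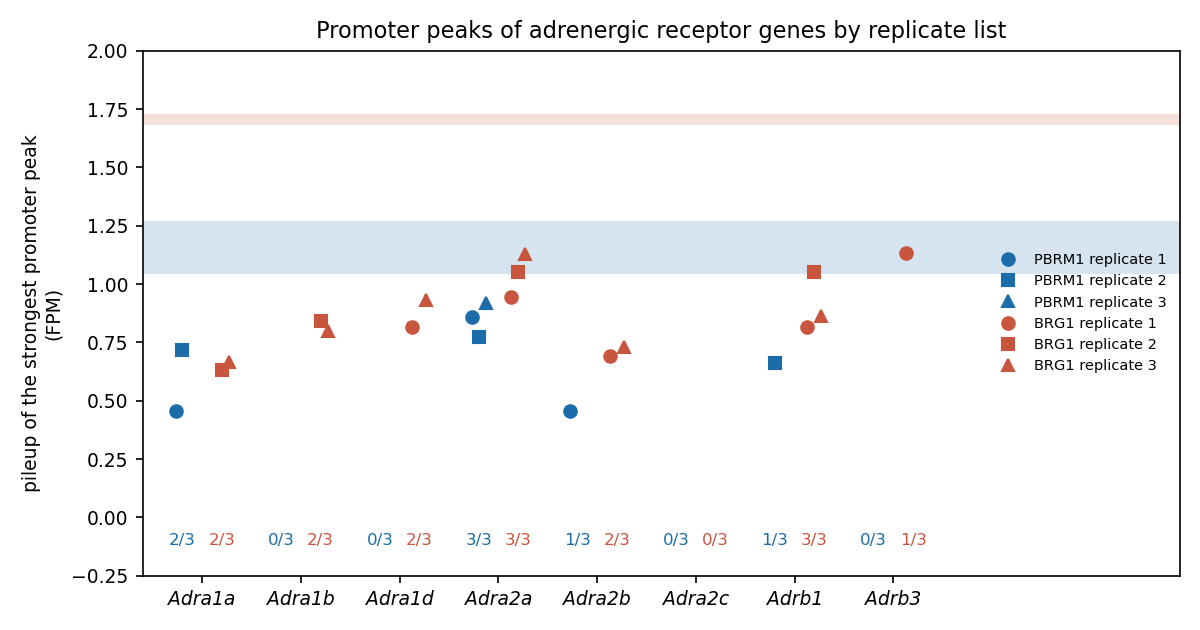
Pileup of the strongest promoter peak (FPM, y axis) for each adrenergic receptor gene (x axis) in each replicate list, with the number of lists of 3 holding a peak written below. Blue marks PBRM1 and red BRG1, and the shaded bands span the 3 list medians over all genes with a promoter peak. Every point lies below the median of its own list, and *Adra2a* is the only gene with 6 points.

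Among the Gq-coupled receptors, *Adra1a*, whose product contracts smooth muscle, had promoter peaks of 0.455 and 0.717 FPM in PBRM1 replicates 1 and 2, and of 0.630 and 0.665 in BRG1 replicates 2 and 3. No site was shared by replicate peaks of both antibodies, although a pooled BRG1 peak overlapped both PBRM1 sites. The PBRM1 peaks lay at the innermost annotated start and 749 bp past it, and both BRG1 peaks formed 1 site 1517 bp downstream of the nearest start. *Adra1b* had no PBRM1 promoter peak, and its promoter peaks in BRG1 replicates 2 and 3, at 0.840 and 0.798 FPM, lay 28 bp inside the inner start (chr11:43836147-43836626), next to the CpG-rich promoter printed above. A further BRG1 replicate 2 peak of 0.560 lay 149 bp upstream of the outer start. *Adra1d*, another Gq-coupled receptor of smooth muscle, had BRG1 peaks of 0.818 in replicate 1, in its coding exon 334 bp past the start, and of 0.931 in replicate 3, 523 bp upstream in an intron of *Gm14285*. No PBRM1 replicate list had one, and the pooled PBRM1 call had a peak 745 bp upstream. The Gq-coupled members thus had 2, 0 and 0 PBRM1 lists and 2, 2 and 2 BRG1 replicate lists with a promoter peak.

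Among the Gi-coupled receptors, *Adra2a*, which encodes the main presynaptic brake on noradrenaline release, had promoter peaks of 0.859, 0.772 and 0.917 FPM in PBRM1 replicates 1 to 3 and of 0.944, 1.05 and 1.13 in BRG1 replicates 1 to 3. All BRG1 values were above all PBRM1 values. The summits of this site (chr19:54044575-54045266) lay between both annotated starts of the gene, the highest in an untranslated exon of the longer transcript, 414 bp upstream of the inner start. The pooled calls there had pileups of 53 for PBRM1 and 43 for BRG1 and fold enrichments of 4.06 and 3.52 (the authors' values). *Adra2b* had 0.455 in PBRM1 replicate 1, and 0.692 and 0.732 in BRG1 replicates 1 and 3, all in 1 site that covers the start and the printed promoter. For *Adra2c* no peak was called in any of the 8 lists in the gene or within 20 kb of it.

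Of the Gs-coupled receptors, *Adrb1*, the main receptor for sympathetic drive in the heart, had 0.662 in PBRM1 replicate 2 alone and 0.818, 1.05 and 0.865 in BRG1 replicates 1 to 3. The peaks in BRG1 replicates 2 and 3 and in PBRM1 replicate 2 shared the printed site 623 bp upstream of the start. That of BRG1 replicate 1 lay elsewhere, in the coding exon and 131 bp upstream of a second annotated start. *Adrb3*, known for its role in fat cells and bladder muscle, had a promoter peak in 1 list, BRG1 replicate 1, at 1.13 FPM, in its coding exon and 464 bp past its innermost start.

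The promoter peaks that were called were weak. In each of the 6 replicate lists and both pooled lists, every member with a promoter peak was below the median of all genes with one. That median was 1.04 to 1.27 FPM in the PBRM1 replicate lists and 1.68 to 1.73 in the BRG1 lists, while the highest member value was 0.917 for PBRM1 and 1.13 for BRG1. The 23 promoter peaks of the replicate lists had pileups of 8 to 22 fragments and fold enrichments of 3.07 to 5.49. When peaks with −log10 q of at least 5 were kept, no member had a promoter peak in all 6 lists or in all 3 of either antibody, and 5 of 8 had none. Over all genes at this cutoff, 27.2% had one in all 6 lists, 29.0% in all PBRM1 lists and 38.4% in all BRG1 lists, and 44.0% had none. The share of genes in the deeper pooled lists with a promoter peak was 66.0% for PBRM1, where 5 of 8 members had one, and 67.8% for BRG1, where 7 of 8 did. *Adra1d* was the 1 member with a pooled PBRM1 promoter peak and none in a PBRM1 replicate list, and pooling added no member for BRG1.

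The difference between antibodies at promoters was fitted with limma over the 9092 genes with a promoter peak in all 6 lists, which left *Adra2a* as the one member tested. Its mean was 0.849 ± 0.0728 FPM for PBRM1 and 1.04 ± 0.0939 for BRG1 (SD, n = 3 each). The PBRM1 minus BRG1 difference was −0.29 on the log2 scale (SE 0.185, 95% interval −0.67 to 0.084, limma adjusted p = 0.141). It did not pass the threshold of 0.05, where 75.1% of the fitted genes were called higher for BRG1 and 0.0880% higher for PBRM1. On this scale the median difference over all fitted genes was −0.59, so this scale placed most genes lower for PBRM1. After each list was centred on its median, *Adra2a* stood at 0.32 (limma adjusted p = 0.394), and with the deposited fold enrichment at 0.068 (adjusted p = 0.793), so the direction at *Adra2a* turned with the scaling. Its mean level was higher than that of 541 of the 9092 genes, at percentile 5.95. The genes closest to it across the 6 lists were *Rptor*, at a Euclidean distance of 0.232 in log2 promoter pileup, and *Edaradd*, at 0.306.

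Most peaks around the receptor genes were distal, in windows that reach well beyond 2 kb of a start. The distal share over all gene windows was not counted. In the gene bodies and 20 kb on each side, the 6 replicate lists held 97 peaks, which merged into 44 sites, 12 at promoters and 32 distal. Distal here means more than 2 kb from every annotated start of the receptor gene itself. Some distal sites therefore lay within 2 kb of a start of another gene (*Eif4ebp1*, *Got1l1*, *Gm10032* or *Gm45470*). Of the 44 sites, 14 had peaks of both antibodies, 9 of PBRM1 only and 21 of BRG1 only. This split was not counted over all merged sites, so it cannot show whether the receptor genes differ from the genome. A peak in all 6 lists was found at 5 of 44 sites, against 15.5% of all 83005 merged sites of the genome, and a peak in 1 list only at 26 of 44, against 47.0%. *Adra1b* held 16 sites and *Adrb3* 10, *Adra1a* and *Adra1d* 6 each, *Adrb1* 3, *Adra2a* 2, *Adra2b* 1 and *Adra2c* 0.

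The windows differ in length, from 43.4 kb at *Adra2c* to 175.9 kb at *Adra1a*. Per 100 kb of window, *Adrb3* had a mean of 7.71 PBRM1 and 8.74 BRG1 peaks per replicate list, at percentiles 94.0 and 96.3 of all protein-coding genes, whose medians were 2.39 and 2.51. *Adra1b* followed for BRG1 with 4.60 (percentile 75.8) and for PBRM1 with 2.40 (percentile 50.2). *Adra1a*, in the longest window, had 0.568 and 0.947. *Adrb3* thus had a promoter peak in 1 replicate list within a densely marked window. The *Adrb3* window also reaches other genes, including the start of *Eif4ebp1*, an inhibitor of translation initiation, and *Got1l1*.

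**Figure D2:**
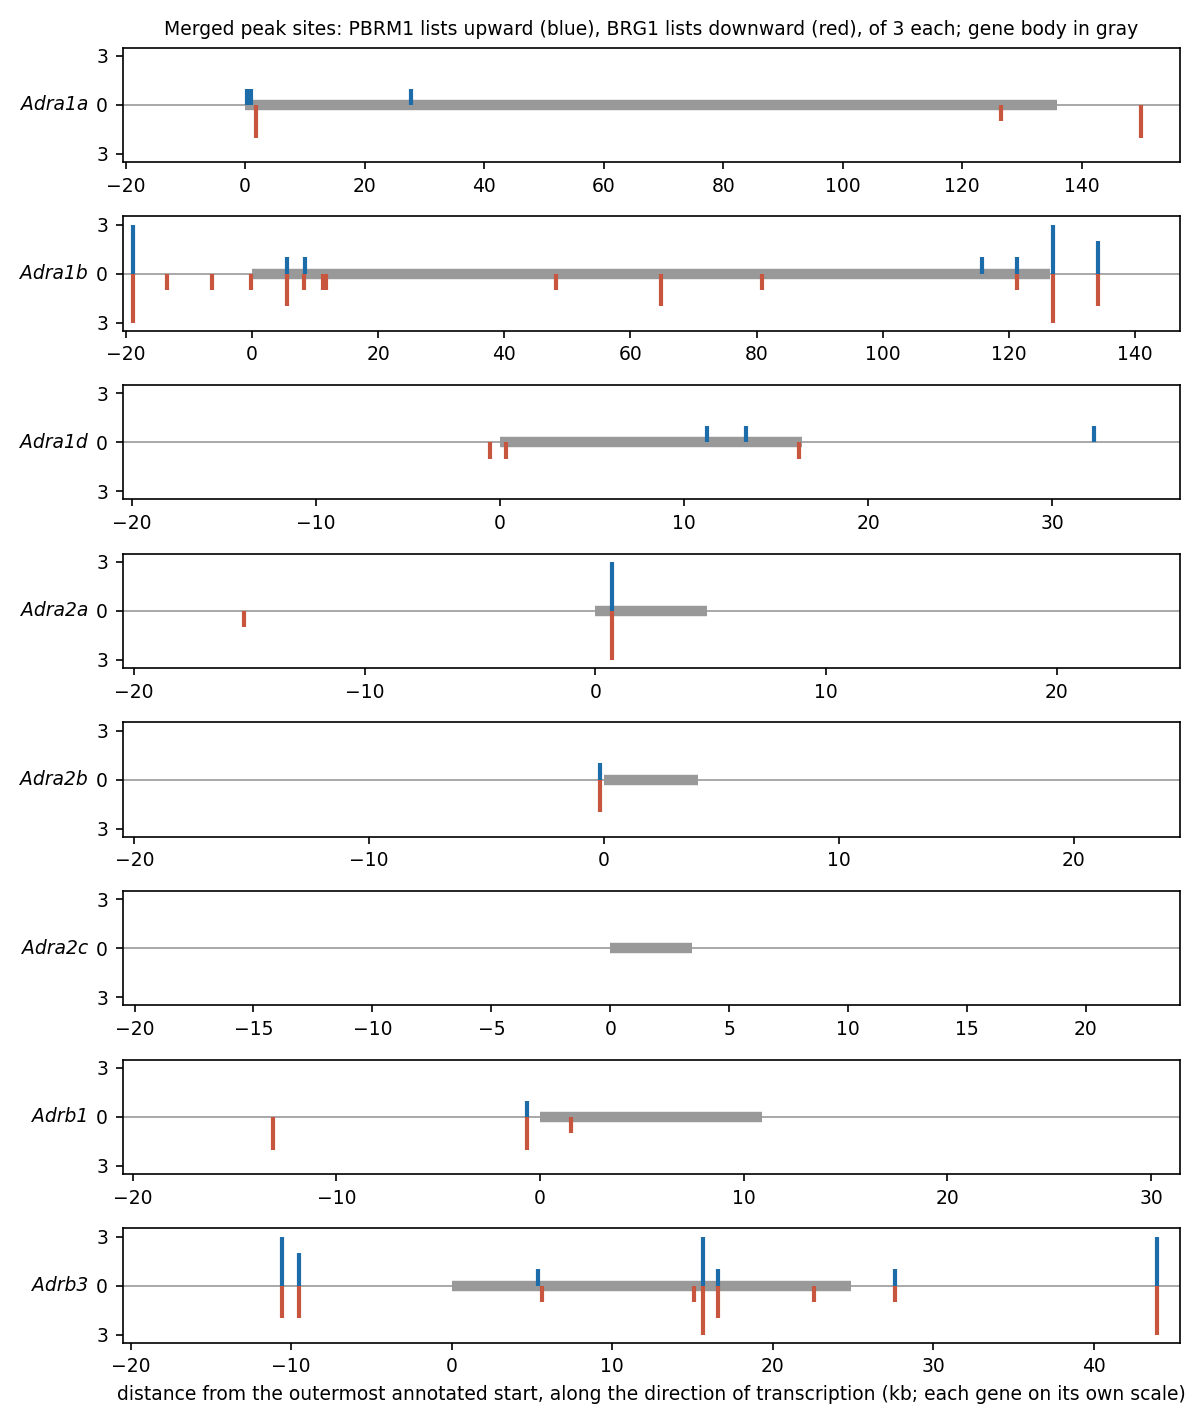
Merged peak sites along the 8 gene windows, with distance from the outermost annotated start in kb on the x axis (each gene on its own scale) and the number of replicate lists on the y axis, PBRM1 upward in blue and BRG1 downward in red. Gray bars are gene bodies. Full-height lines in both directions, at *Adra1b*, *Adra2a* and *Adrb3*, are the 5 sites found in all 6 lists.

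At *Adra1b*, which encodes a contractile receptor, 2 distal sites had a peak in all 6 lists, although its promoter had no PBRM1 peak in any replicate list. The first, 18870 bp upstream in intergenic sequence (chr11:43919517-43920529), had 1.72, 1.10 and 1.46 FPM in PBRM1 replicates 1 to 3 and 1.89, 1.47 and 1.26 in BRG1 replicates 1 to 3. These values overlapped between antibodies. The site stood at percentile 57.1 of mean level among the 12842 sites with peaks in all 6 lists, and its pooled peaks ranked 3395 by q of 94612 for PBRM1 and 6285 of 96166 for BRG1. The second began past the 3′ end of the gene, with its highest summit 368 bp beyond it (chr11:43773623-43774431), and had 1.16, 0.993 and 0.792 for PBRM1 and 1.07, 1.19 and 0.732 for BRG1, again overlapping. Another site, 7604 bp past the gene end, had peaks in 2 lists of each antibody, at 0.657 and 1.21 for PBRM1 and 0.910 and 1.26 for BRG1. Of the remaining *Adra1b* sites, 10 were seen in 1 list.

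At *Adrb3*, 2 distal sites had a peak in all 6 lists. One lay 4155 bp upstream of the nearest start, in an intron of the longer *Adrb3* transcripts and of *Gm45470* (chr8:27234508-27235262). It had 1.16, 1.43 and 1.33 FPM in PBRM1 replicates 1 to 3 and 1.51, 1.19 and 0.998 in BRG1 replicates 1 to 3, which overlapped. The other lay downstream, 19083 bp past the gene end, in an intron of *Got1l1* (chr8:27206531-27206927). It had 0.606, 0.607 and 0.834 for PBRM1 and 0.881, 1.47 and 1.26 for BRG1, all BRG1 values being the higher. The strongest peaks of the *Adrb3* window belonged to neither. At a site 875 bp past the start of *Eif4ebp1* the PBRM1 lists had 2.12, 1.77 and 1.25, and BRG1 replicates 1 and 3 had 1.70 and 2.06. A second site 208 bp upstream of that start had peaks in 2 lists of each antibody.

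The 5 sites with 6 peaks were compared between antibodies with limma over all 12842 such sites, a fit added after the data were seen. The *Adrb3* downstream site was lower for PBRM1 by a log2 difference of −0.81 (SE 0.210, 95% interval −1.23 to −0.38, limma adjusted p = 0.00273), like 52.3% of fitted sites that were called higher for BRG1. The call did not hold once each list was centred on its median (−0.34, adjusted p = 0.377) or with the deposited fold enrichment (−0.44, adjusted p = 0.105), and the median over all fitted sites was −0.49. The *Adrb3* intronic site differed by 0.10 (95% interval −0.30 to 0.51, adjusted p = 0.665), where 0.530% of sites were called higher for PBRM1. The *Adra1b* sites differed by −0.11 upstream (−0.53 to 0.31, adjusted p = 0.643) and by −0.0090 past the gene end (−0.43 to 0.41, adjusted p = 0.973), and the *Adra2a* promoter site by −0.29 (adjusted p = 0.193). The last 3 turned positive after centring, at 0.35, 0.46 and 0.17, and the *Adrb3* intronic site stood at 0.57 (limma adjusted p = 0.0968), with no adjusted p under 0.05 among the 5 sites.

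**Figure D3:**
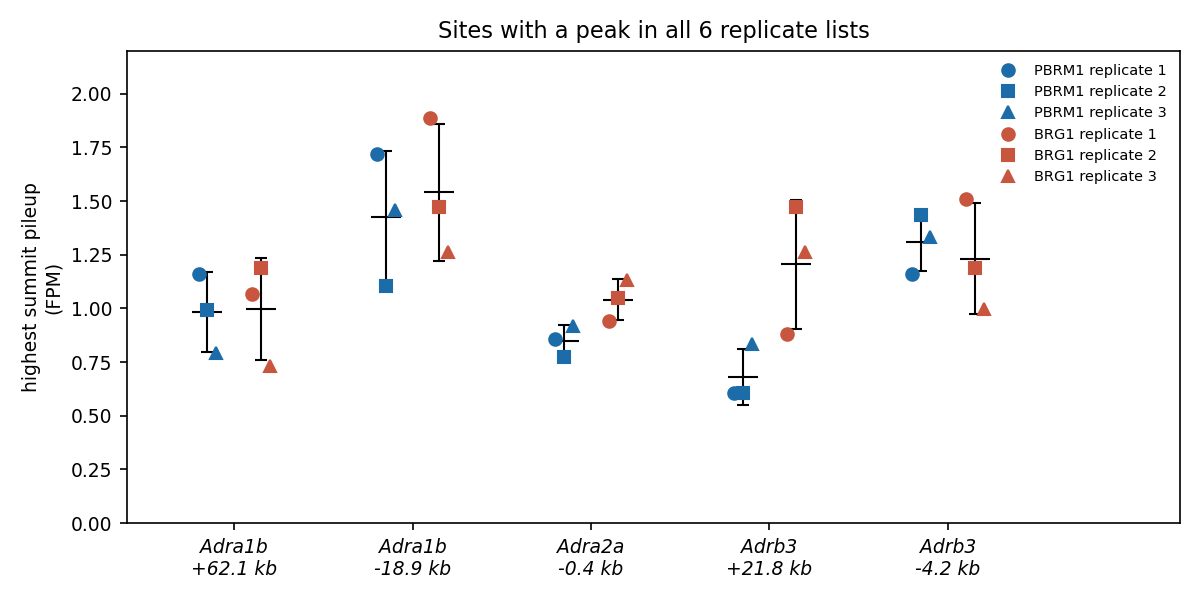
Highest summit pileup (FPM, y axis) in each replicate list at the 5 sites with a peak in all 6 lists (x axis, with distance to the nearest start of the receptor gene). Points are replicate lists, and black bars are the mean ± SD of 3 lists. The antibodies overlap at both *Adra1b* sites and at the *Adrb3* intronic site, and all BRG1 points lie above all PBRM1 points at *Adra2a* and at the *Adrb3* downstream site.

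Of the 21 sites with replicate peaks of BRG1 only, 17 were seen in 1 list and 4 in 2 lists, and 4 of the 21 had a pooled PBRM1 peak. Neither these counts nor those for PBRM1 below were made over all merged sites. At *Adrb1* a site 13130 bp upstream (chr19:56708991-56709207), printed above, had 1.05 and 1.06 FPM in BRG1 replicates 2 and 3 and a pooled BRG1 peak with a pileup of 43 and a fold enrichment of 5.08. BRG1 replicate 1, the 3 PBRM1 replicate lists and the pooled PBRM1 list had no peak there. At *Adra1a* a site 13940 bp past the gene end, in an intron of *Gm10032* and 600 bp from its start, had 0.692 and 0.532 in BRG1 replicates 1 and 3 and no PBRM1 peak. The 9 sites of PBRM1 only were each seen in 1 list, and 8 of them had a pooled BRG1 peak. They included 2 in the *Adra1d* intron, at 0.993 in replicate 2 and 0.834 in replicate 3, and pooled peaks of PBRM1 and of BRG1 were called at both.

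Summed over each window, the peak signal was higher for BRG1 without overlap in 3 of the 7 genes with any peak, *Adra1b*, *Adra2a* and *Adrb1*, where 40.6% of 17682 protein-coding genes showed the same, and higher for PBRM1 in 0 of 7, where 1.05% did. *Adra1b* had 5.51, 4.30 and 2.25 FPM in PBRM1 replicates 1 to 3 and 7.49, 7.91 and 6.39 in BRG1 replicates 1 to 3, from 12 and 23 peaks covering a mean of 1717 and 2388 bp. The mean per peak was 1.01 FPM for PBRM1 and 0.947 for BRG1. *Adrb1* had 0, 0.662 and 0 for PBRM1 and 0.818, 2.10 and 1.93 for BRG1, from 1 and 5 peaks. *Adra2a* had 0.849 ± 0.0728 and 1.23 ± 0.344 (SD, n = 3), from 3 and 4 peaks. Each of the 3 had a two-sided exact permutation p of 0.1, the smallest that 3 against 3 can give, and an adjusted p of 0.240.

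*Adrb3* had the highest sums besides *Adra1b*, at 7.07, 6.01 and 3.42 for PBRM1 and 9.37, 4.41 and 5.99 for BRG1. These overlapped between antibodies (exact permutation p = 0.7). *Adra1a*, *Adra1d* and *Adra2b* overlapped as well, with exact permutation p-values of 0.4, 1 and 0.4, and none of their means exceeded 1.01. Sums depend on window length, and per 100 kb the order changed. For BRG1, *Adrb3* had 10.2 ± 3.91 FPM per 100 kb (SD, n = 3) and stood above *Adra1b* (4.36 ± 0.472) with no overlap of lists. *Adrb1* (3.17 ± 1.37), *Adra2a* (2.74 ± 0.767), *Adra1d* (1.59 ± 1.56), *Adra2b* (1.08 ± 0.935) and *Adra1a* (0.573 ± 0.186) came next, and from *Adra1b* on each gene overlapped its neighbor in this order, down to *Adra1a*. For PBRM1, *Adrb3* had 8.49 ± 2.90 and *Adra1b*, which followed, 2.41 ± 0.988, again with no overlap. The lowest with any peak was *Adra1a* (0.316 ± 0.349). The *Adrb3* values of both antibodies include the strong peaks at the start of *Eif4ebp1*, and the order without them was not tested. The PBRM1 replicate 3 list, from the deepest library, held 8 peaks in the 8 windows, and the other PBRM1 lists 16 and 14. The BRG1 lists held 24, 16 and 19. When each list was divided by its own median pileup, 1 gene (*Adrb1*) had BRG1 above PBRM1 without overlap, as had 20.15% of all genes tested, and when peaks were counted in place of signal, 1 gene (*Adra1b*) had, as had 2.82% of genes.

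**Figure D4:**
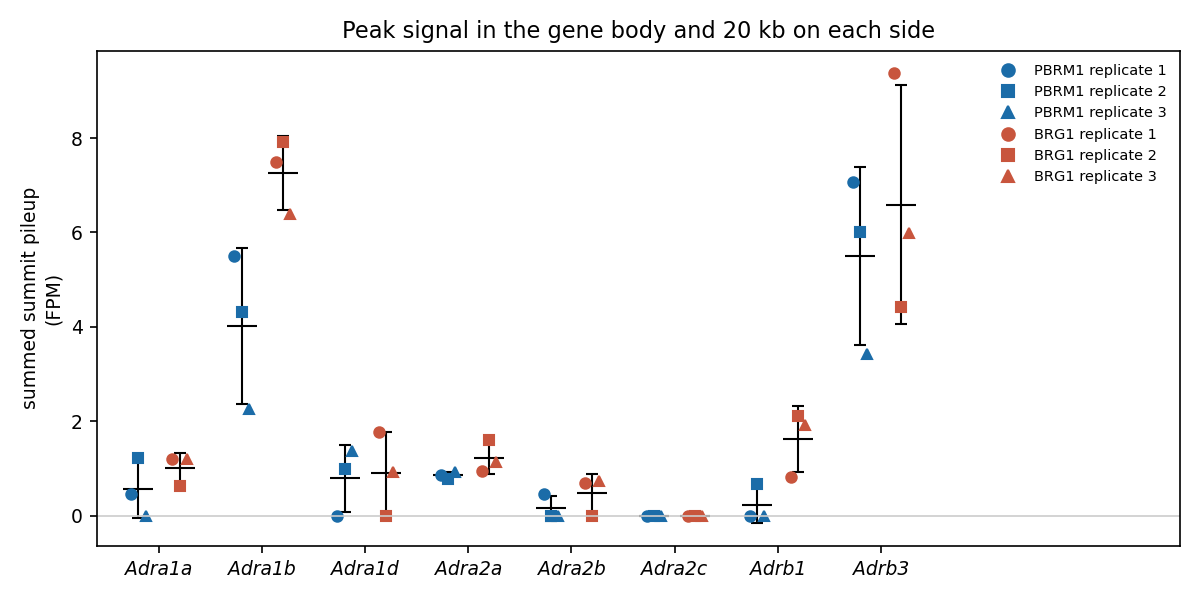
Summed summit pileup of all peaks (FPM, y axis) in the gene body and 20 kb on each side, for each gene (x axis) and replicate list. Black bars are the mean ± SD of 3 lists. The windows differ in length. *Adra1b* and *Adrb3* have the highest sums, and *Adra2c* is at 0 in every list.

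Promoter peaks were also counted at other genes of the adrenergic pathway, with no test against the receptors or all genes. Of 46 genes for catecholamine handling, G protein alpha subunits, effector enzymes, protein kinase A and desensitization, 21 had a promoter peak in all 6 lists (41.8% of all genes did), 31 in all 3 BRG1 lists (50.0% of all genes) and 21 in all 3 PBRM1 lists (44.2%), and 5 had none (34.3%). By role, this was so in all 6 lists for 5 of 6 protein kinase A genes, 5 of 9 desensitization genes (*Grk5*, *Grk6*, *Arrb1*, *Arrb2*, *Rgs2*), 4 of 7 G protein alpha subunits (*Gnas*, *Gna11*, *Gnai2*, *Gnai3*), 4 of 13 effector enzymes and 3 of 11 genes of catecholamine synthesis, storage and removal. *Gnas*, the Gs subunit through which *Adrb1* and *Adrb3* signal, had 3 of 3 lists of each antibody, and *Gnaq*, the Gq subunit used by the *Adra1* receptors, had 2 PBRM1 and 3 BRG1 lists. *Th*, the first enzyme of catecholamine synthesis, had none. A promoter peak was found in more BRG1 than PBRM1 lists for 14 of the 46 genes, against 14.7% of all genes, and in more PBRM1 lists for 4, against 5.48%.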

How the data were processed

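ChIC-Seq peak lists were analysed for 3 PBRM1 and 3 BRG1 libraries and for the authors' pooled call of each antibody, 8 lists in all. Per the labels, cutadapt, Bowtie2 and MACS2 were used with GRCm38.p5, and per the file headers MACS 2.2.7.1 called peaks from paired-end fragments at a q cutoff of 0.05, with all fragments kept and no control. Other steps are not given in the sources used here. The deposited pileup is a signal (fragment coverage at the summit) left unscaled, the deposited fold enrichment is its ratio to local background, and the deposited q-value is given as −log10 q. All 8 lists fitted GRCm38 chromosome ends, and genes came from GENCODE M21.

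Pileup was scaled to 1000000 of the fragments in its file header (FPM). Smaller libraries need fewer fragments for a peak, and values in a list start at its own threshold, so a peak just under it counts as absent. Promoter peaks (2 kb) were fitted on log2 values without a pseudocount by limma 3.58.1 (R 4.3.3) with Benjamini-Hochberg adjustment. Genes lacking a peak in any list were not fitted. Window sums (20 kb) were compared by two-sided exact permutation over 20 relabelings. Sites were peaks of the 6 replicate lists merged on overlap. Scripts (Python 3.11.15, numpy 2.4.6, pandas 2.3.3, pysam 0.24.0, samtools 1.23.1) were tested on simulated data. Genes named were the 8 receptors, genes with a start within 2 kb of a summit in their windows, the 2 nearest in pattern to a member with 6 promoter peaks, and the marker and pathway lists. Members and lists were chosen with earlier results of these data known. Alternatives were stricter or equal-sized lists, other distances, transcripts and scalings, leaving out each library, and a block on replicate number.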

Additional observations from a re-analysis of the deposited data

How the results depend on the processing

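Of 218 alternative values for 20 results, 177 were taken as unchanged. For counts this meant staying within 1.5 times, and for limma tests keeping direction and call. For window differences of single genes it meant only that the direction did not reverse, so their permutation p-values and overlap could change. The *Adra1d* window difference by number of peaks was 0 and was taken as unchanged. For the others the cause was not tested. At −log10 q of at least 5, the members with a promoter peak numbered 0 in all 6 lists, 0 in all PBRM1 lists, 0 in all BRG1 lists and 5 in none, 1 had a higher share of BRG1 lists and 2 a higher share of PBRM1 lists, 0 windows were higher for BRG1 without overlap (44.8% of all genes tested), the window differences (PBRM1 minus BRG1) of *Adra1a* and *Adra2a* turned to 0.24 and 0.31, and the *Adra2a* promoter could not be fitted. With equal numbers of peaks, 1 member had all BRG1 lists, 2 windows did not overlap (40.4% of genes; *Adrb1* was lost) and *Adra1d* turned to 0.21. With summits within 1 kb, 1 member had a higher share of PBRM1 lists. The non-overlapping windows fell to 1 with 50 kb flanks (47.4% of genes; *Adra2b* at 0.23), to 1 by number of peaks (2.82%) and to 1 with each list divided by its median (20.15%; *Adra1d* at 0.070). Centring turned *Adra2a* to 0.32 at promoters, its site to 0.17, and the *Adra1b* sites to 0.35 upstream and 0.46 past the gene end, and weakened *Adrb3* downstream to −0.34. Fold enrichment turned *Adra2a* to 0.068 and weakened *Adrb3* downstream to −0.44.

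Leaving out single libraries gave 1 to 1 members with all 6 lists and 1 to 2 with all PBRM1 lists (2 without PBRM1 replicate 3). A promoter peak in all BRG1 lists was found for 2 to 4 (4 without BRG1 replicate 1 or 2). In no list was one found for 1 to 2 (2 without BRG1 replicate 1). A higher share of BRG1 lists was found for 5 to 6, and of PBRM1 lists for 0 to 1. Shares over all genes were not counted for these promoter results, nor with equal numbers of peaks or summits within 1 kb. Windows higher for BRG1 without overlap numbered 3 to 4, where 44.6% to 53.0% of all genes tested showed the same. The *Adra2a* promoter difference ran from −0.36 to −0.23. The window difference ran from −0.56 to 0.32 at *Adra1d* and −2.18 to 0.30 at *Adrb3*. Site differences ran from −0.26 to 0.059 and −0.22 to 0.14 at *Adra1b*, −0.038 to 0.26 at the *Adrb3* intronic site and −1.01 to −0.65 downstream, where the limma adjusted p stayed at 0.00174 to 0.0236. A replicate block gave −0.29 at the *Adra2a* promoter (limma adjusted p = 0.177) and changed no limma call. Deviations of same-numbered libraries correlated at −0.012, 0.025 and −0.0098, and those of differently numbered libraries at −0.023 to 0.033. These correlations cannot tell whether same-numbered libraries came from the same mice or culture. Depth limits absence, since peaks needed 6 to 8 fragments.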
